A study of Mus musculus with 288 samples.

Results

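Transcripts of glycolysis and of the hypoxia response were followed in single mouse embryonic stem cells leaving the 2i state. The gene set held 32 named rows among 54232 rows of the deposited count table. They were chosen by function, but with earlier results of these data known. The set held 17 genes for the enzyme steps from hexokinase to lactate dehydrogenase. Another 14 were transport, flux-control and other genes that hypoxia-inducible factor (HIF) is known to induce. The last was Hif1a, which encodes the oxygen-regulated HIF subunit. Of all 32, 27 had a mean of at least 10 CPM, and only these entered the counts of changed members below. CPM is the reads of a gene scaled to a common total of reads per cell. The mean was taken over cells and then over the 3 time points. The cells carried the label E14, a 129/Ola embryonic stem cell line. Cells labelled D0 (0 h) were grown in N2B27 with LIF and the inhibitors CHIR99021 and PD0325901 (2i+LIF). Cells labelled D1 (24 h) and D2 (48 h) had been moved to medium with fetal bovine serum and LIF for that time. All cultures were kept at 37 °C under 20% oxygen, so none was made hypoxic. The RNA was the transcriptome arm of scNMT-seq, in which the polyadenylated RNA and the DNA of a sorted cell are separated and both sequenced.

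A total of 233 of 288 wells passed the limits on reads, genes and mitochondrial reads, with 90 cells labelled D0, 50 labelled D1 and 93 labelled D2. Median reads per cell ranged from 1610758.5 in D0 to 7956161.5 in D1, and the lowest passing cell had 202157. Median detected genes were 9002, 10676 and 4744 in D0, D1 and D2, and the median mitochondrial share was 4.54%, 3.32% and 1.32%. As far as the labels show, each time point was 1 culture on 1 plate. The effects of time, culture and plate cannot be told apart in such a design. Cells are no replicates of a time point either, and differences between the labels were not tested. All errors below are the SD between cells of 1 culture. CPM is relative, so more reads of a gene and fewer reads of the rest of the cell cannot be told apart. In the sentences below, rose and fell mean a ratio of means of at least 2-fold, without a test. Cells labelled D1 also stood apart by Hprt, a purine salvage gene that the widely used derivative E14Tg2a is known to lack. Its mean was 207 ± 141 CPM in D1, against 3.08 ± 10.9 in D0 and 2.68 ± 13.8 in D2. Every comparison with D1 holds this difference too, and its part in the results was not tested. By distance to the mean profile of each label, 3 cells labelled D0 and 1 labelled D1 lay nearest to D2, and leaving those cells out changed no count of called members by more than 1. The 6 pluripotency markers listed were all read in each label, no read fell on the 3 markers of 2-cell-like cells, and the summed fibroblast markers had a mean between 0.404 and 3.60 CPM. Other summed lineage markers differed between the labels, with means in D0, D1 and D2 of 35.9, 10.8 and 12.2 CPM for trophectoderm, 10.1, 19.5 and 1.38 CPM for ectoderm, 9.21, 0.507 and 0.0842 CPM for mesoderm and 7.62, 2.44 and 2.32 CPM for primitive endoderm. Pax6, an ectoderm marker, was read in 44% of D1 cells, 3.23% of D2 cells and no D0 cell. The part of these markers in the results was not tested.

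Glycolysis splits glucose into pyruvate in the cytosol, and lactate dehydrogenase can then turn pyruvate into lactate. When oxygen is scarce, prolyl hydroxylases stop marking HIF-1 alpha for destruction, and the stabilised factor binds short DNA motifs and induces glucose transporters, most glycolytic enzymes, lactate export and kinases that keep pyruvate out of mitochondria. Naive mouse embryonic stem cells are known to use both respiration and glycolysis, and cells further along towards primed pluripotency rely more on glycolysis.

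The promoters of the members that rose most at 48 h are shown to make the binding core of HIF visible beside the values. They are the 6 members with the largest ratio of D2 over D0 among those with a mean of at least 10 CPM and a promoter entry, so they were chosen by measured values and nothing about regulation is read from them. Sequences are RefSeq windows of build GRCm38.p6, from 250 bases before to 50 bases after a start site, the first listed where a gene has several. Capitals mark the core motifs ACGTG and GCGTG on either strand, which read CACGT and CACGC on the opposite strand, with overlapping matches merged (an E-box, CACGTG, is then counted once).
Egln3, chr12:54203825-54204124, minus strand: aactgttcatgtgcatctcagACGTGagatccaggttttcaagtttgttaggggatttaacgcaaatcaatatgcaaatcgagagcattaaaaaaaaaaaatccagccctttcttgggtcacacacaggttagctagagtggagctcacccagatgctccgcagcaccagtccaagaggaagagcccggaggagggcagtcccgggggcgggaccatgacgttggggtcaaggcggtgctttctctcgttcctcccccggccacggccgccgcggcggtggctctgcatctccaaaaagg
Bnip3, chr7:138909457-138909756, minus strand: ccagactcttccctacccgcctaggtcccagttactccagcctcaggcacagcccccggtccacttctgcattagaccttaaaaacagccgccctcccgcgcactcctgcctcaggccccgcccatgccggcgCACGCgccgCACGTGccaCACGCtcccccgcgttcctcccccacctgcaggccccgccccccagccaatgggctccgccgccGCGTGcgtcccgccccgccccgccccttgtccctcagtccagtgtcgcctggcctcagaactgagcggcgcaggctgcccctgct
Eno3, chr11:70656926-70657225, plus strand: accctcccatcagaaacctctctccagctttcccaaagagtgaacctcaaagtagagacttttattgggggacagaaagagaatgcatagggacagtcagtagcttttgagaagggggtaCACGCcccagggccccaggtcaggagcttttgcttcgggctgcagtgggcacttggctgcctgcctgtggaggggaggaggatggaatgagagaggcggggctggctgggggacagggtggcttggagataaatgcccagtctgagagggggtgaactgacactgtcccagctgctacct
Slc16a3, chr11:120948817-120949116, plus strand: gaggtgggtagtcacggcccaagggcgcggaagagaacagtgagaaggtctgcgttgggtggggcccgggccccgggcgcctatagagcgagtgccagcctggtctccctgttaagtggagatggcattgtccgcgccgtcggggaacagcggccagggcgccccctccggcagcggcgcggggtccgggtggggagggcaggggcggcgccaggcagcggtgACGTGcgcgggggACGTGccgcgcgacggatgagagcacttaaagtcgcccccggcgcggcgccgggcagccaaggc
Ldha, chr7:46845554-46845853, plus strand: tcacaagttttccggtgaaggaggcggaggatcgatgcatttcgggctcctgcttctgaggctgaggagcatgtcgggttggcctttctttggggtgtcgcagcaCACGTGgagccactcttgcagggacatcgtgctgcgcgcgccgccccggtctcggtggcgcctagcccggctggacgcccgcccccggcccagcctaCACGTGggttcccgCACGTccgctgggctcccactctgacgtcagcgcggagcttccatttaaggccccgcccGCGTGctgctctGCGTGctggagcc
Eno1, chr4:150236458-150236757, plus strand: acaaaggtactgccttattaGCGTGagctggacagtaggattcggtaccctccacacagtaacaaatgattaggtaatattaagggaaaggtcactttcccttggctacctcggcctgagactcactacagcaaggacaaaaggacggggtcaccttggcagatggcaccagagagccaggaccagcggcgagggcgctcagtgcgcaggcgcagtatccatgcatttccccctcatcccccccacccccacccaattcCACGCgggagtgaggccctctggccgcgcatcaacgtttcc

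The Ldha window held 5 such cores and that of Bnip3 4, among them E-boxes in each, whereas Slc16a3 and Eno1 had 2 and Egln3 and Eno3 had 1. In Slc16a3 both cores lay close to the start site, beginning at positions -27 and -14. Among 29 members with a promoter entry, the first window held at least 1 core in 23 (79.3%) and at least 2 in 18 (62.1%). Among all 27025 genes with an entry the shares were 43.8% and 17.4%. Set against genes read in these cells the gap was smaller: at least 1 core stood in 79.2% of the 24 members with a mean of at least 10 CPM and in 66.9% of the 6641 genes that met the same limit. At least 2 cores stood in 62.5% and 34.5%. The windows of Tpi1 and Gpi1 held none.

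The 2 glucose transporter genes changed in opposite directions. Slc2a1, which encodes the ubiquitous glucose transporter GLUT1, rose from a mean of 159 ± 161 CPM in D0 to 341 ± 389 in D1 and 616 ± 682 in D2, or 3.87-fold over 48 h. Cells ranged from 0 to 919.7 CPM around a median of 115 in D0, and from 0 to 3570.4 around 375 in D2, where 24 of 93 cells lay above the highest D0 cell. Slc2a3, which encodes the high-affinity transporter GLUT3, was lower after release, at 912 ± 584 CPM in D0, 160 ± 172 in D1 and 374 ± 724 in D2. None of the 50 D1 cells reached the D0 median of 855 CPM, and in D2 11.8% did. The D2 mean lay above its median of 123 CPM because a few cells were very high: the highest cell had 5916 CPM and alone gave 16.99% of the summed level. Per kilobase of transcript, Slc2a1 made up 17.5% of the 2 transporters in D0, 72.2% in D1 and 66.6% in D2. The change was seen cell by cell, as Slc2a1 exceeded 50% in 1 of 89 D0 cells with a read of either gene, in 42 of 50 D1 cells and in 59 of 87 D2 cells.

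Slc16a3, which encodes the lactate exporter MCT4, was among the strongest rises. Its mean was 20.7 ± 43.4 CPM in D0, 73.1 ± 95.5 in D1 and 209 ± 226 in D2, 10.1-fold over 48 h. In D0 the median cell had no read (39 of 90 cells had one, 43.3%, exact 95% interval 32.9% to 54.2%), whereas the D2 median was 156 CPM and 38 of 93 D2 cells lay above the highest D0 cell. Slc16a1, which encodes the related transporter MCT1 and was not a member, went the other way, from 157 ± 128 to 71.9 ± 58.8 and 56.6 ± 135 CPM.

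**Figure D1:**
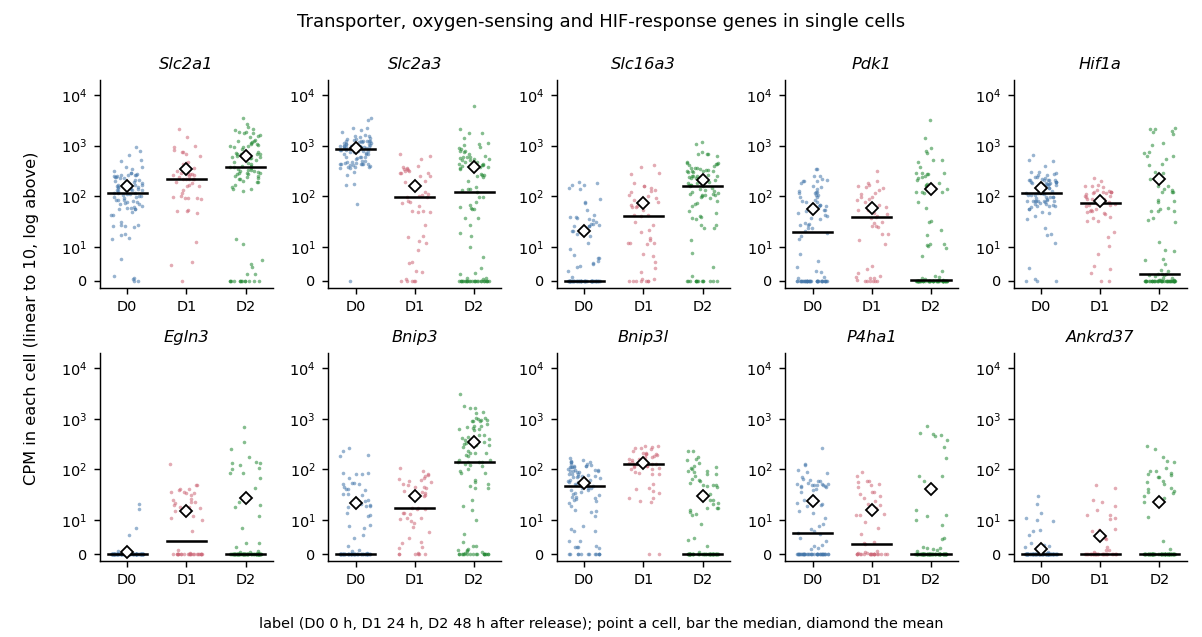
CPM of 10 transporter, oxygen-sensing and HIF-response genes in each passing cell (points; axis linear up to 10 CPM and logarithmic above) for labels D0, D1 and D2, with the median as a bar and the mean as a diamond. For Slc2a1 and Slc16a3 most D2 cells lie above the D0 median, although 13 and 14 of 93 D2 cells had no read, while Hif1a, Pdk1, Egln3 and P4ha1 in D2 combine a median at or near 0 with a tail of high cells.

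The enzyme genes took a larger share of the reads at each later time point. Summed, the 17 genes held 0.715 ± 0.297% of a cell's reads in D0, 1.04 ± 0.486% in D1 and 1.87 ± 0.502% in D2. D0 cells ranged from 0.0785% to 1.61% with a median of 0.693%, D1 cells from 0.165% to 2.21% with a median of 1.02%, and D2 cells from 0.888% to 3.32% with a median of 1.84%. The D1 cells spread across the D0 range, with 6 of 50 above its top, whereas 65 of 93 D2 cells lay above every D0 cell. By label in order of time, its Spearman rho with reads per cell was -0.261, 0.109 and 0.246, and with detected genes -0.192, 0.298 and 0.138. In D0 it was lower in cells with a larger mitochondrial share (rho -0.417, 90 cells). Per kilobase, Aldoa was the highest of the enzyme genes in D0 (739 CPM per kb) and D1 (1268 CPM per kb). In D2, Eno1 (2240 CPM per kb), Ldha (2161) and Aldoa (2031) lay close together at the top, and their cells overlapped widely.

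The hexokinase step and the isomerase step after it did not follow that rise. Hexokinase, the enzyme that phosphorylates glucose on entry, was lower in 2 stages. Hk1 had a mean of 107 ± 97.7 CPM in D0, with a read in 82 of 90 cells, and 6.19 ± 10.9 in D1, a 0.0578-fold level. In D2 it was 20.2 ± 83.6 CPM, with a read in 17 of 93 cells (18.3%, exact 95% interval 11.02% to 27.6%) and 36.05% of the summed level in the highest cell. Hk2, the inducible form and a known HIF target, was the same in D0 (171 ± 109 CPM, median 159) and D1 (171 ± 131, median 150.01) and dropped to 18.9 ± 48.9 CPM in D2, with a median of 5.93. Only 3.23% of D2 cells lay above the D0 median of Hk2. Summed, the hexokinase genes stood at 58.8 CPM per kb in D0, 32.6 in D1 and 8.66 in D2. Gpi1, the isomerase of the next step, had 433 ± 215, 428 ± 252 and 499.8 ± 526 CPM.

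Phosphofructokinase, the main control point of the pathway, changed in make-up. Pfkl, the liver-type subunit, had 114 ± 103 CPM in D0, 138 ± 102 in D1 and 315 ± 294 in D2 (2.76-fold), with 76.3% of D2 cells above the D0 median. Pfkp, the platelet-type subunit, was 276 ± 269 CPM in D0, 98.2 ± 97.0 in D1 and 262 ± 400 in D2, yet its D2 median of 82.6 CPM was below that of D1 (87.7), so the D2 mean rests on high cells. Part of Pfkp overlaps the neighbouring Pitrm1, so reads there could belong to either. Pfkm, the muscle-type subunit, was read in 73 of 90 D0 cells, 46 of 50 D1 cells and 5 of 93 D2 cells, and 77.8% of its D2 level came from 1 cell. Per kilobase, Pfkl held 26.8% of the step in D0, 49.3% in D1 and 54.4% in D2.

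From aldolase to enolase, each step except that of Gapdh had a gene that rose by 48 h. Aldoa, which splits the 6-carbon sugar, rose from 1117 ± 578 CPM in D0 to 1916 ± 1031 in D1 and 3068 ± 1359 in D2 (2.75-fold), and 97.8% of D2 cells lay above the D0 median. Tpi1, which interconverts the 2 triose phosphates, stayed at 398 ± 290 and 494 ± 303 CPM in D0 and D1 and reached 1334 ± 761 in D2 (3.36-fold). Pgk1, the first ATP-making step, had 292 ± 205, 393 ± 242 and 712 ± 543 CPM, and Pgam1, the mutase, 355 ± 144, 511 ± 283 and 943 ± 415 CPM. Pgam1 separated the populations more clearly than Pgk1, with 65 of 93 D2 cells above the highest D0 cell against 7 of 93.

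Eno1, the main enolase, showed the cleanest separation of the enzyme genes. D0 cells ranged from 15.0 to 2790 CPM with a median of 1097, D1 cells from 142 to 4834 with a median of 2176, and D2 cells from 1545 to 9884 with a median of 4388. Every D2 cell lay above the D0 median and 81 of 93 above the highest D0 cell, and the mean rose from 1098 ± 477 to 4540 ± 1638 CPM (4.14-fold). Eno3, the enolase of muscle, was far lower but rose by the largest factor of the enzymes, from 8.11 ± 17.7 CPM in D0 to 55.3 ± 58.7 in D1 and 95.1 ± 160 in D2. It had a read in 31 of 90 D0 cells (34.4%, exact 95% interval 24.7% to 45.2%) and in 60 of 93 D2 cells (64.5%, 53.9% to 74.2%), where the median was 8.78 CPM. The lower and upper quartiles in D2 were 0 and 134 CPM, and whether the cells form separate groups was not tested. Pkm, which makes pyruvate, had 1226 ± 570, 1761 ± 988 and 2297 ± 872 CPM (1.87-fold over 48 h, under the 2-fold limit).

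Lactate dehydrogenase shifted towards its A subunit, the form known to favour lactate production. Ldha had 721 ± 508 CPM in D0, 1761 ± 1104 in D1 and 3817 ± 1783 in D2 (5.29-fold), with medians of 622, 1558 and 3649 CPM. Only 1 D2 cell in 93 was below the D0 median, and 74 of 93 lay above the highest D0 cell. Ldhb, the subunit that favours the reverse reaction, fell from 491 ± 533 CPM in D0 to 239 ± 186 in D1 and was 246 ± 320 in D2, and 33 of 93 D2 cells had no read. Per kilobase, Ldha made up 52.04% of the pair in D0, 84.5% in D1 and 91.96% in D2, and it exceeded 50% in 53 of 90, 47 of 50 and 91 of 93 cells. Ldhc, another form known from testis, was not a member and stayed low at 17.7 ± 31.7, 4.68 ± 18.8 and 20.3 ± 69.4 CPM.

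**Figure D2:**
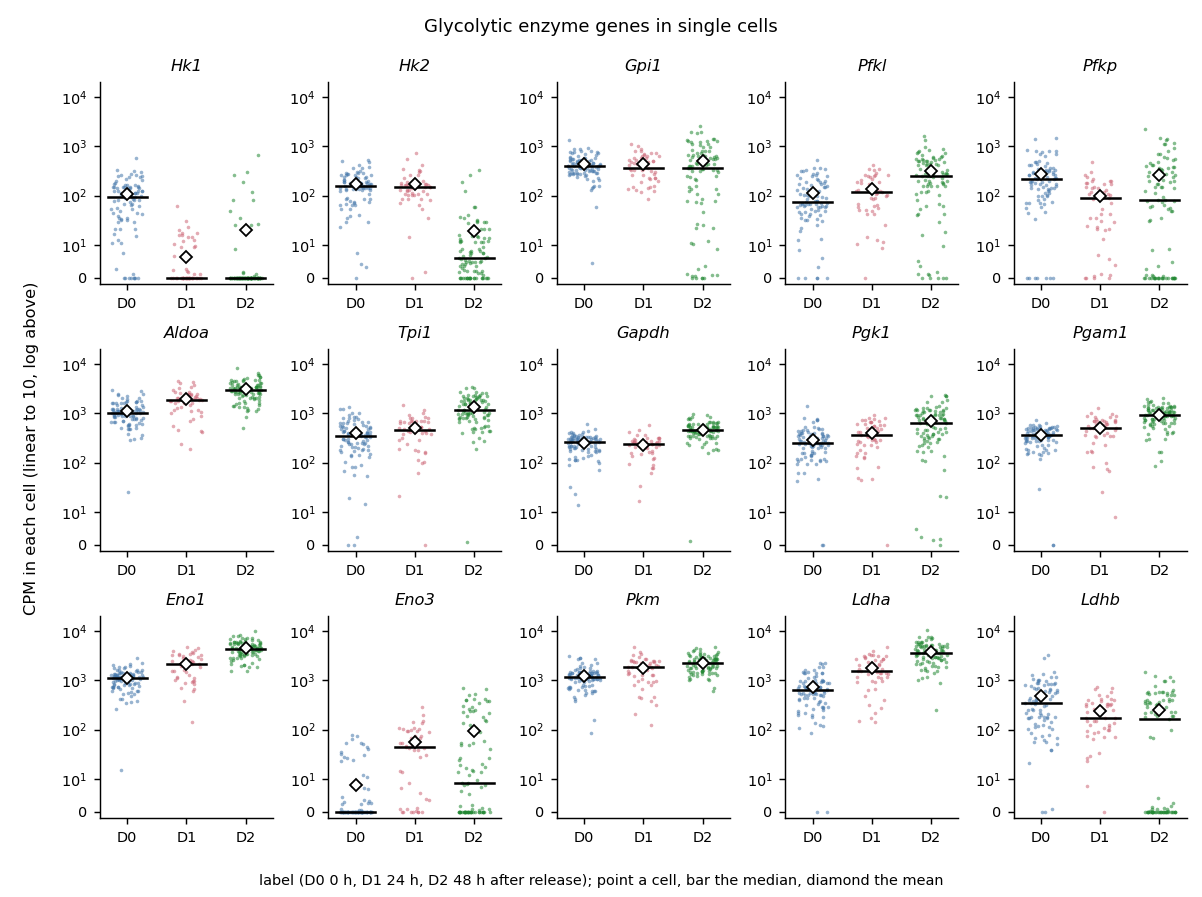
CPM of 15 glycolytic enzyme genes in each passing cell (points; axis linear up to 10 CPM and logarithmic above) for labels D0, D1 and D2, with the median as a bar and the mean as a diamond. For Eno1, Ldha and Aldoa nearly all D2 cells lie above the D0 median although the cells of each label are widely spread. Hk1 and Hk2 drop to medians of 0 and 5.93 CPM in D2. Some D2 cells have no read of Eno3 or Ldhb.

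**Figure D3:**
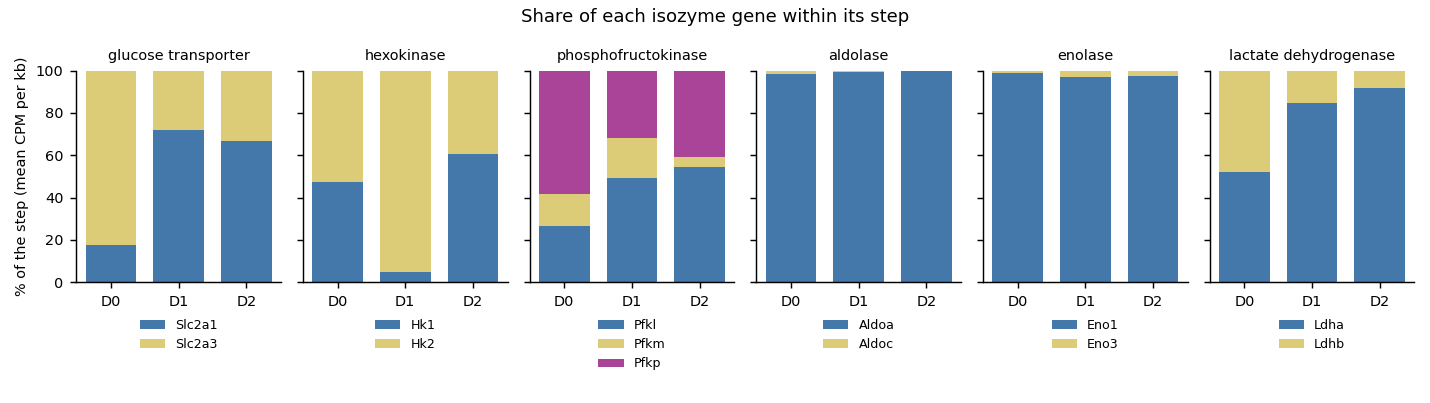
Share of each isozyme gene within its step, as a percent of the summed mean CPM per kilobase of transcript, for D0, D1 and D2. Slc2a1 goes from 17.5% to 66.6% and Ldha from 52.04% to 91.96% between D0 and D2, whereas Aldoa and Eno1 hold over 96% of their steps in each label.

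Several enzyme genes have retrocopies in the mouse genome, and reads from these cannot be told apart from those of the gene where the sequence is the same. Of all 75-base windows of the annotated transcript, 80.3% of those of Gapdh also stood in another gene, as did 67.5% for Pgk1, 65.4% for Eno1, 46.3% for Bnip3 and 40.6% for Pgam1. Eno1b, a retrocopy of Eno1, took 14.8% of the reads on the pair in D0, 1.37% in D1 and 14.5% in D2. Over single cells the share had medians of 14.7%, 0.972% and 14.4%, with a range of 0 to 19.3% for D0, 0 to 15.7% for D1 and 5.08% to 17.9% for D2. The only 2 D1 cells without an Hprt read had 13.7% and 15.7%, like D0 and D2, against a median of 0.948% in the other 48. Rows sharing sequence with Gapdh behaved the other way, with 17.3% of the combined level in D0, 44.3% in D1 and 17.4% in D2. Again the 2 D1 cells without an Hprt read, at 15.2% and 17.8%, lay below the lowest of the other 48 (34.9%).

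This split bears on the D1 values of both genes. Gapdh, the dehydrogenase that is often used as a reference gene, had 253 ± 104 CPM in D0, 229 ± 106 in D1 and 466 ± 169 in D2. Its log2 ratio of D1 over D0 was -0.15 for the row itself and 0.42 with the rows that share its sequence, and that of D2 over D1 went from 1.03 to 0.46, under the 2-fold limit. For Eno1 the D1 over D0 ratio went from 0.97 to 0.73. The D2 over D0 ratios hardly moved, at 0.88 for Gapdh and 2.05 for Eno1 in both cases. The Aldoa gene is also listed in the table under a second identifier that lies upstream, but that row held at most 0.65 CPM on average and was not added.

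Aldoc, the brain-type aldolase, was read in 55 of 90 D0 cells, 18 of 50 D1 cells and 6 of 93 D2 cells, with means of 35.97 ± 48.01, 31.5 ± 171 and 20.2 ± 87.9 CPM. In D1, 77.01% of its level came from 1 cell, so its ratios are set by a few cells.

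Among the controls on pyruvate use, Pdk1, a kinase that inhibits pyruvate dehydrogenase and a known HIF target, had 56.4 ± 80.4 CPM in D0, 59.7 ± 66.9 in D1 and 140.1 ± 391 in D2. The D2 rise rested on few cells: the median was 0.166 CPM, against 19.6 in D0, only 35.5% of D2 cells lay above the D0 median, and the highest cell gave 24.5% of the level. Without that cell the D2 over D0 log2 ratio was 0.92 in place of 1.31. Pfkfb3, which makes an activator of phosphofructokinase, was under the 10 CPM limit at 1.45, 4.03 and 1.99 CPM.

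Hif1a gave opposite pictures by mean and by median. Its mean was 144 ± 112 CPM in D0, 79.7 ± 54.4 in D1 and 224 ± 517 in D2. The median went from 117 CPM in D0 to 72.3 in D1 and 1.96 in D2, where 56 of 93 cells had a read and the highest had 2184 CPM. The D2 over D1 ratio of the means (log2 1.49) had the opposite sign from that of the medians (-5.20). Over all genes the median log2 ratio of D2 over D1 changed sign too, at 0.12 by means and -1.11 by medians. Egln3, the prolyl hydroxylase PHD3 and a known HIF target, showed the largest ratio of all members. It was nearly absent in D0, with 190 reads in all, a read in 5 of 90 cells (5.56%, exact 95% interval 1.83% to 12.5%) and a mean of 0.574 ± 2.96 CPM. In D1 27 of 50 cells had a read (mean 15.5 ± 22.9 CPM), and in D2 25 of 93 (mean 27.7 ± 89.2 CPM, highest 686). The D2 mean was above that of D1 although fewer cells had a read, and without the highest D2 cell the D2 over D1 log2 ratio was 0.41 in place of 0.84. Egln1, the main prolyl hydroxylase PHD2, was under the limit at 2.93, 1.65 and 1.07 CPM.

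Bnip3 and Bnip3l, related receptors that mark mitochondria for removal and are both known HIF targets, moved in opposite directions between D1 and D2, after both had higher means in D1 than in D0. Bnip3 rose between D1 and D2, from 22.1 ± 48.2 CPM in D0 and 29.3 ± 27.9 in D1 to 351 ± 510 in D2 (15.9-fold over D0). Its median was 0 in D0, 17.3 CPM in D1 and 141 in D2, and 37 of 93 D2 cells lay above the highest D0 cell (262 CPM). With the rows sharing its sequence the D2 over D0 log2 ratio was 3.87 in place of 3.99. Bnip3l rose from 54.8 ± 46.8 CPM in D0 to 134 ± 78.9 in D1 and dropped to 30.6 ± 51.8 in D2. In D1, 80% of cells were above the D0 median of 46.5 CPM, and in D2 24.7%. Bnip3l was 2.45-fold higher in D1 than in D0 and 0.228-fold that level in D2.

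The remaining HIF targets differed among themselves. P4ha1, a subunit of collagen prolyl 4-hydroxylase, had 24.2 ± 39.1, 16.0 ± 22.9 and 41.2 ± 133 CPM, with a D2 median of 0 and a read in 24 of 93 D2 cells. Its D2 over D1 log2 ratio was 1.36 over the plate, -3.48 in plate columns 1 to 6 and 2.80 in columns 7 to 12. Ndrg1, a stress-induced gene, was lower in D1 (6.14 ± 18.1 CPM) than in D0 (21.6 ± 40.5) and D2 (14.3 ± 57.3). Ankrd37, a small ankyrin-repeat target that overlaps Lrp2bp, had 1.44 ± 4.56, 5.26 ± 10.6 and 22.97 ± 51.9 CPM, just under the limit on the mean, with 21 of 93 D2 cells above the highest D0 cell. Vegfa, the angiogenic growth factor, had 3.59, 0.175 and 3.68 CPM in D0, D1 and D2, with a read in 33 of 90, 9 of 50 and 8 of 93 cells, and P4ha2 had 3.19, 3.44 and 3.37 CPM. Both were under the limit and were not called.

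Counted over the 27 members with a mean of at least 10 CPM, called meaning at least 2-fold, 6 were higher and 5 lower in D1 than in D0. Of all 8642 genes above the same limit 12% were higher and 28.6% lower. The 6 higher members were Slc2a1, Slc16a3, Eno3, Ldha, Egln3 and Bnip3l, and the 5 lower ones Slc2a3, Hk1, Pfkp, Ldhb and Ndrg1. Ldha and Ldhb were not called on both sides of the plate taken alone. The calls of Slc2a1 and Ldhb ended when a single cell was left out, at a log2 ratio of 0.94 and -0.94. With reads summed over cells and scaled by TMM factors in place of totals, 12 were higher and 6 lower. The median log2 ratio of all genes moved too, from -0.25 for summed reads with totals to -0.05. The share of all genes called with these factors was not computed.

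In D2 against D0, 13 members were higher and 4 lower, beside 14.3% and 26.7% of all genes. The higher ones included 8 of 17 enzyme genes (Pfkl, Aldoa, Tpi1, Pgk1, Pgam1, Eno1, Eno3 and Ldha) and 5 of 9 HIF-response genes (Slc2a1, Slc16a3, Pdk1, Egln3 and Bnip3). The lower ones were Slc2a3, Hk1, Hk2 and Pfkm. Of the 13 rises, 12 were at least 2-fold on each side of the plate taken alone and also without any 1 cell, with Pdk1 the exception in both. Of the 4 falls, only those of Hk1 and Hk2 were called on both sides, and in columns 1 to 6 alone the number of lower members was 8. The median log2 ratio of all genes was -0.26 in those columns, against -0.15 over all cells. The share of all genes called there was not computed. By medians over cells the median log2 ratio of all genes was -0.85, over 3290 genes with a ratio, and the share called was not computed. Medians gave 8 higher and 6 lower members, and of the 13 rises and 4 falls they kept 8 and 2. Of the rest, Slc16a3, Eno3, Egln3, Bnip3, Hk1 and Pfkm had a median of 0 in D0, in D2 or in both and gave no ratio, and Pdk1 was lower by medians. The 2 comparisons share the D0 cells. The median log2 ratio was 0.91 over the enzyme genes and 1.31 over the HIF-response genes, against -0.15 over all genes. For D1 over D0 the same medians were 0.27, 0.41 and -0.34. The summed HIF-response genes moved less than their median ratio, from 0.128 ± 0.0772% of a cell's reads in D0 down to 0.0849 ± 0.0610% in D1 and up to 0.184 ± 0.140% in D2. Only 3 of 93 D2 cells lay above the highest D0 cell by this sum. In D0 most of that sum was Slc2a3, which was lower after release.

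Between D1 and D2, 14 members were higher and 2 lower in D2, beside 20.7% and 17.6% of all genes. Of the 14, 7 were at least 2-fold on each side of the plate, namely Slc16a3, Hk1, Pfkl, Pfkp, Tpi1, Hif1a and Bnip3. The lower ones were Hk2 and Bnip3l, on each side of the plate as well. The rises of Slc2a3, Pdk1 and Ndrg1 dropped below 2-fold when a single cell was left out. Medians over cells gave 6 higher and 4 lower, while the median log2 ratio of all genes went from 0.12 to -1.11 (3310 genes with a ratio). The share of all genes called by medians was not computed. Of the 7 rises called on each side of the plate, medians kept Slc16a3, Pfkl, Tpi1 and Bnip3. Pfkp and Hif1a were lower by medians, and Hk1 had a median of 0 in both labels and gave no ratio.

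**Figure D4:**
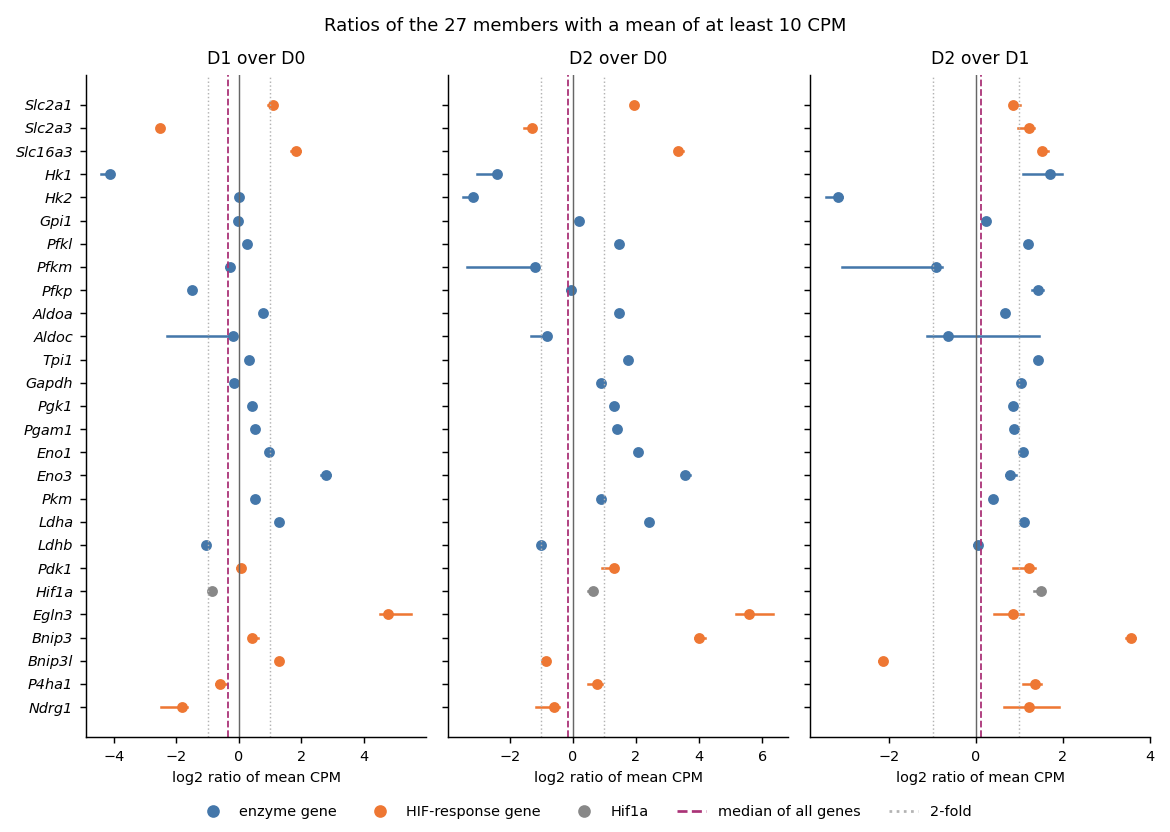
Log2 ratio of mean CPM for the 27 members with a mean of at least 10 CPM in the 3 comparisons. Points are the ratios over all passing cells, lines the range when each cell is left out in turn, the dashed line the median of all genes and dotted lines 2-fold. Ratios of Eno1, Ldha and Aldoa barely move without any 1 cell, whereas those of Pfkm with D2 and of Aldoc with D1 move by over 2-fold without 1 cell.

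Within a label, most pairs of enzyme genes had a positive correlation from cell to cell, namely 113 of 120 pairs in D0, 90 of 105 in D1 and 76 of 91 in D2. Each cell was thinned to 200000 reads, genes detected in 50% or more of the cells were kept, and Spearman's rho was computed for each pair across cells as a description. The median over pairs of enzyme genes was 0.27 in D0 (16 genes, 90 cells), 0.31 in D1 (15 genes, 50 cells) and 0.12 in D2 (14 genes, 93 cells). With genes detected in 90% or more of the cells it was 0.40, 0.65 and 0.23. Over all pairs of genes kept at 50% it was 0.032, 0.055 and 0.015. The share of positive pairs over all genes, and their median at 90%, were not computed. The enzyme genes were not matched to other genes by level, which bears on how far these medians can be compared. Pairs share the depth and quality of their cell, and fewer genes could be used in D2, so the labels are not ranked by these values. In D0 the closest pairs were Aldoa with Pkm (0.71) and Gpi1 with Pkm (0.70). In D1 they were Pgam1 with Pkm (0.87) and Aldoa with Ldha (0.86). In D2 the closest pair, Tpi1 with Pkm, reached 0.45.

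Some enzyme genes stood outside this pattern. Ldhb was near 0 with Ldha in D0 (-0.10) and D2 (0.028) and 0.18 in D1. Hk2 was below 0 with 17 of the 21 other members kept in D1, the lowest being Pfkm (-0.37), with 5 of 21 in D0 and 7 of 17 in D2. Eno3 in D1 was -0.052 with Pkm.

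The HIF-response genes that could be used were few, with 5 in D0, 6 in D1 and 4 in D2, and their median rho was 0.21, 0.42 and 0.10. Between the enzyme and the HIF-response genes it was 0.22, 0.34 and 0.10. In D1, Slc2a1 and Slc16a3 had a rho of 0.50 with each other, and in D2 Bnip3 was closest to Tpi1 (0.38) and Pgk1 (0.38). Hif1a was unrelated to the other members in D0, with rho from -0.11 to 0.20 and a median of 0.030 over 21 pairs. In D1 it ranged from -0.19 with a median of 0.25 up to 0.48, the highest with Bnip3l, and in D2 it was read in too few cells.

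**Figure D5:**
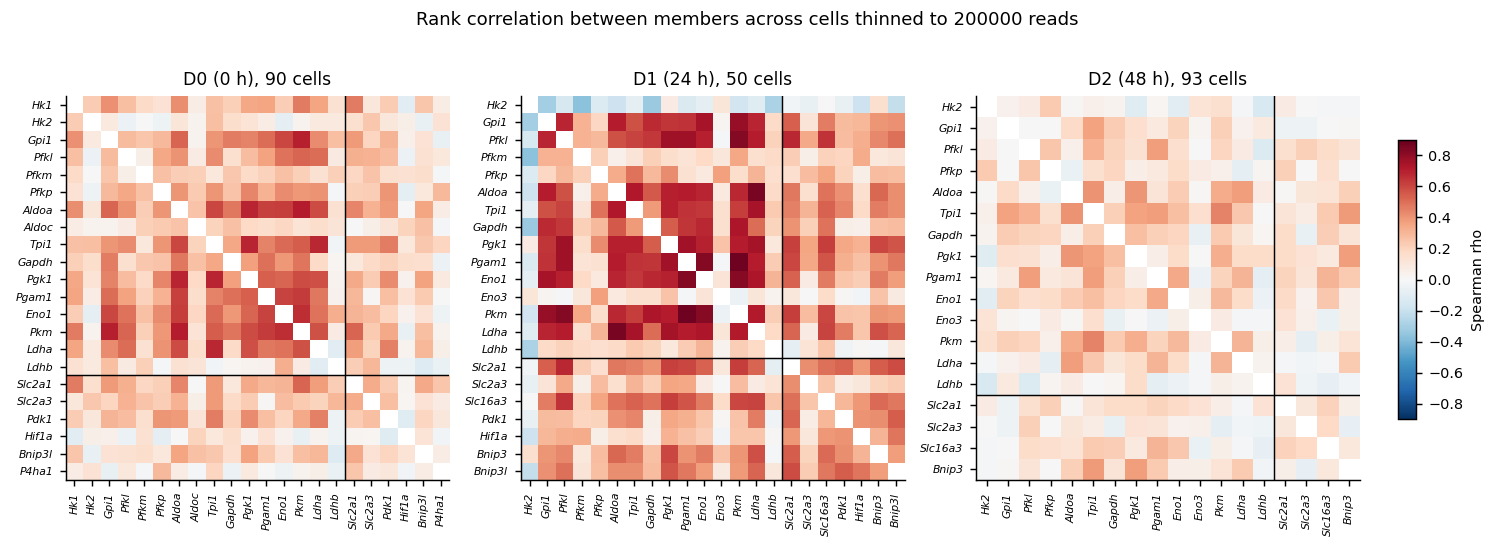
Spearman rho between members across cells thinned to 200000 reads, for D0, D1 and D2 (red positive, blue negative). Black lines separate enzyme genes (upper left) from the others, and only genes detected in 50% or more of that label's cells are shown. Most enzyme pairs are red in each label, with closest pairs at 0.71 in D0, 0.87 in D1 and 0.45 in D2. Different genes are shown in each label, so the panels are not ranked by colour.

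Outside the set, the genes whose CPM followed the summed HIF-response genes most closely in D0 were Aff4 (0.43), Pla1a (0.43) and Bhlhe40 (0.42) out of 7495 genes ranked. In D1 they were P4hb (0.74), Ctnnb1 (0.72) and Nop2 (0.71), and in D2 Polr2d (0.39), Hmces (0.33) and Tmem134 (0.32). No gene was among the 10 closest in more than 1 label. Bhlhe40, a hypoxia-induced repressor, was the only one of the 30 on the list of other hypoxia genes. Its level was 23.5 ± 32.7 CPM in D0 and 1.78 and 1.50 CPM in D1 and D2.

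The counts for other pathway genes are to be read beside the 14.3% higher and 26.7% lower of all genes in D2 over D0. Of 22 further glycolysis genes, 7 had a mean of at least 10 CPM, and in D2 over D0 1 was higher (Bpgm, 12.4 ± 23.3 to 42.9 ± 171 CPM) and 1 lower (Slc16a1). Bpgm was read in 43.3% of D0 cells and 17.2% of D2 cells, so the higher D2 mean came from fewer cells. Of 28 further hypoxia genes, 15 passed the limit, and 2 were higher and 4 lower, shares near those of all genes. The rises were Fam162a, a mitochondrial HIF target, from 24.2 ± 25.4 to 244 ± 196 CPM, and Higd1a, from 81.05 ± 95.9 to 224 ± 225 CPM. The falls were largest for Ak4, an adenylate kinase and HIF target, from 260 ± 179 to 30.7 ± 102 CPM, and for Wsb1, from 417 ± 289 to 58.5 ± 155 CPM. Arnt, the partner subunit of HIF-1 alpha, went from 101 ± 79.7 to 33.5 ± 110 CPM, and Kdm3a, a HIF-induced histone demethylase, from 349 ± 178 to 136 ± 230 CPM. In D1, Epas1, which encodes HIF-2 alpha, was the largest rise but 1 among the listed genes above the limit, at 39.2 ± 44.7 CPM against 8.04 ± 17.4 in D0, after Fam162a at 119.98 ± 94.2. Next came Jmjd6, from 48.3 ± 43.2 to 130 ± 88.6 CPM. Among the listed genes above the limit, the largest falls in D1 were those of Ak4 (21.3 ± 29.6 CPM), the pluripotency factor Nanog (489 ± 228 to 67.2 ± 139) and Kdm4b (31.99 ± 41.4 to 4.56 ± 10.0). The pluripotency genes did not move together: over 48 h Sox2 fell from 65.05 ± 45.5 to 19.6 ± 34.2 CPM, while Pou5f1 rose from 502 ± 184 to 1524 ± 559 CPM and Dppa5a from 2680 ± 1786 to 6841 ± 6389 CPM. The other 3 of the 6 were not called.

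For the pathways that leave or follow glycolysis, the 6 pentose phosphate genes above the limit had 2 rises in D2 over D0, Pgls (52.7 ± 38.8 to 131 ± 101 CPM) and Rpe, and no fall. Of 7 genes for pyruvate entry into mitochondria, 1 was higher (Pdhx, from 63.9 ± 51.3 to 215 ± 419 CPM) and none lower. Pdhx and Rpe were also read in fewer cells at 48 h, at 62.4% against 87.8% of cells for Pdhx and 67.7% against 90% for Rpe. The median log2 ratio was 0.43 over the pentose phosphate genes and -0.27 over the pyruvate genes, against 0.91 for the enzyme genes.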

How the data were processed

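Single-cell RNA-seq of mouse embryonic stem cells at 0, 24 and 48 h after release from 2i was used, with 96 wells per label. The deposited table of the authors holds raw counts, 1 whole number for each gene and well, and includes wells that their filter on cells removes. Per the submitters' processing notes, reads were aligned with HISAT2 to GRCm38, and the counting tool and annotation are not given in the sources used here. The sample descriptions name a filtered, normalized table, but the values are whole numbers of differing totals and were taken as counts.

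Cells with over 200000 reads, over 2000 genes and a mitochondrial fraction under 0.15 were kept. Counts were divided by the total of each cell (CPM) and averaged over cells. Ratios are log2 ratios of mean CPM without pseudocount. A member needed a mean of at least 10 CPM over the means of the labels, and at least 2-fold counted as called. The planned design had no test because each label was 1 culture, so no p-value is given. Intervals are exact Clopper-Pearson 95% intervals on the share of cells with a read. They treat the cells of 1 culture as independent draws and do not cover differences between cultures. The counting error of ratios is a separate 95% interval that takes reads as Poisson counts. No molecular identifiers were available, so copies of 1 molecule count as separate reads and that interval may be too narrow. Transcript lengths, positions and shared 75-base windows came from GENCODE M21 on GRCm38, in which 95.6% of 54232 row names matched, and may not be the annotation the authors used. Aldoa is the row of its main Ensembl gene. Promoters came from the RefSeq table (29 of 32 members matched), where a motif match is a description and no match says only that these letters are not in that window. The software was pandas 2.3.3, scipy 1.17.1 and numpy 2.4.6 under Python 3.11.15, with scaling factors from edgeR 4.0.16 and DESeq2 1.42.0 in R 4.3.3, and figures from matplotlib 3.10.9. The ratios and correlations were checked on simulated counts.

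The members, the lists and the named genes were chosen with earlier results of these data known. All members are accounted for. From the other lists the 3 largest ratios in each direction are named, and other list genes were named after their values were seen. Alternatives were other cell limits, scalings, pseudocounts, thinning, medians, plate sides, leaving out each cell, and no length correction. Leaving out D1 cells without Hprt reads and cells nearest another label were also run, and adding reads on similar rows was chosen after seeing the data. Doublets were not searched for, as cells were sorted into wells.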

Additional observations from a re-analysis of the deposited data

Results flagged for a closer look

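The 55 wells that failed the limits on cells were not used above, yet held reads of the 32 members. Summed over wells, there were 891 such reads in 6 failing D0 wells, 3905 in 46 failing D1 wells and 10401 in 3 failing D2 wells, above the 3 reads that a count of 0 allows. They made up 0.778%, 1.09% and 0.713% of the reads in those wells.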

How the results depend on the processing

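No paired analysis was possible because the labels give well positions, not replicates shared between time points. Of 44 called ratios, 645 values under alternatives gave 5 reversals, 243 values within the counting error of the reported ratio, and 397 in the same direction but outside it. With medians over cells, 3 members were higher and 3 lower in D1 over D0, 8 higher and 6 lower in D2 over D0, and 6 higher and 4 lower in D2 over D1. A median of 0 gave no ratio, and the median log2 ratio of all genes moved as well. It went from -0.34 to -0.23 in D1 over D0 and from -0.15 to -0.85 in D2 over D0. In D2 over D1 it went from 0.12 to -1.11. Log2 ratios of medians reversed for Pdk1 (-6.88 in D2 over D0, -7.90 in D2 over D1), Pfkp (-0.087 in D2 over D1) and Hif1a (-5.20 in D2 over D1). In plate columns 1 to 6 there were 8 lower members in D2 over D0, and P4ha1 reversed to -3.48 in D2 over D1. TMM factors gave 12 higher members in D1 over D0. Against reads summed over cells they moved the median log2 ratio of all genes from -0.25 to -0.05 in D1 over D0 and from -0.14 to 0.14 in D2 over D0. The other counts stayed within 1.5 times those reported, and leaving out 1 cell at a time gave 5 to 6, 12 to 13 and 13 to 15 higher members. Among genes detected in 90% or more of the cells, enzyme genes had a median rho of 0.40, 0.65 and 0.23 in the 3 labels in order of time, and it was 0.33 in D0 and 0.58 in D1 for the only pair of HIF-response genes left. In plate columns 1 to 6, median rho over the HIF-response genes in D2 was 0.18 in place of 0.10. The cause of these changes was not tested beyond the fewer genes and cells used. Genes under 10 CPM were not called at this depth. Fewer genes were detected in D2 than in D0, although the median reads per cell were higher, at 2162090 against 1610758.5.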
